A study of Capsicum annuum and Capsicum chinense and Capsicum annuum var. glabriusculum with 33 samples.

Results

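Pepper fruit turns red through carotenoids, and the 2 genes described here stand at the start and at the end of that route. Phytoene synthase (PSY) joins geranylgeranyl diphosphate into phytoene, the first committed step of carotenoid synthesis. Capsanthin/capsorubin synthase (CCS) turns the yellow antheraxanthin and violaxanthin into the red capsanthin and capsorubin, which are stored in the chromoplasts of ripe pepper fruit. The genes were chosen by identity, PSY as Capana04g002519 and CCS as Capana06g000615, and they are 2 of the 31426 predicted genes of the table.

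Poly(A) RNA of 33 libraries was sequenced, and levels are in RPKM, that is read counts divided by gene length in kilobases and by the library's read total, so that both genes can be compared per length. The C. annuum line Zunla 1 (also written ZL1) gave root, stem, leaf, closed bud, open flower and 9 fruit stages: fruit of 0 to 1, 1 to 3, 3 to 4 and 4 to 5 cm length, mature green fruit, fruit at breaker, when colour starts to change, and fruit 3, 5 and 7 days after breaker. Mature green fruit also came from the C. annuum lines ZJ49, ZJ32, ZJ9, 11c255, 11c320, G16, T803 and SP3, and fruit 5 days after breaker from ZJ49 and ZJ7. HYL, an inbred line of C. chinense, gave mature green fruit, fruit 5 days after breaker, and root, stem and leaf of seedlings. Chiltepin, C. annuum var. glabriusculum, a wild pepper, gave breaker fruit, a mix of buds and open flowers, and leaf mixed from 4 growth phases. SP3 carries another line name in its description, and 1 breaker library, titled as HYL but described as Zunla 1, was put in no group. The labels name no treatment. Each line, organ and stage is 1 library, so spreads and p-values cover stages, lines or organs and not plants.

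Read totals were recovered from the spacing of the values and came to 12691809 to 15864306 reads in a shallower set of 25 libraries and 25923891 to 31213971 reads in a deeper set of 8 (chiltepin and mature green 11c255, 11c320, G16, T803 and SP3). Gene lengths were sought as multiples of 3. All 33 values of either gene then were whole reads within 0.01 reads, at a length of 1497 bases for CCS and 1260 bases for PSY. The gene of the RefSeq assembly UCD10Xv1.1 that carries the name Ccs is also 1497 bases long and lies on chromosome 6, the chromosome number in the ID Capana06g000615. The RefSeq gene named psy1 lies on chromosome 4, as the ID Capana04g002519 does. Its length there includes introns, so the length gave no second check for PSY. A level of 3 reads, the floor taken here, was 0.0642 to 0.158 RPKM for CCS and 0.0763 to 0.188 RPKM for PSY, and intervals and floors cover counting error only. Whether reads of related genes reached these models was not tested.

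In Zunla 1 fruit both genes were low while the fruit was green and very high after breaker, but they climbed at different stages. PSY was at 8.63 RPKM in fruit of 0 to 1 cm, 5.28 RPKM at 1 to 3 cm, 7.52 RPKM at 3 to 4 cm, 2.98 RPKM at 4 to 5 cm and 2.06 RPKM at mature green. It was at 10.4 RPKM at breaker and 96.4 RPKM 3 days later, then at 1992 RPKM at 5 days and 1180 RPKM at 7 days. The late steps carried most of the climb: PSY gained 5.04-fold from mature green to breaker, 9.29-fold to 3 days and 20.7-fold from 3 to 5 days after breaker.

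CCS had no read in the smallest fruit of 0 to 1 cm and 1 to 3 cm, where the floor of 3 reads was 0.145 RPKM. It was at 3.47 RPKM at 3 to 4 cm, 0.256 RPKM (5 reads) at 4 to 5 cm and 2.37 RPKM at mature green, and then at 1583 RPKM at breaker. That step was 668-fold. At 3 days after breaker CCS reached 13285 RPKM, its highest level in any of the 33 libraries, and it stood at 8086 RPKM at 5 days and 9050 RPKM at 7 days. After median-of-ratios scaling CCS was at 9608 at 5 days and 8678 at 7 days, so the order of these 2 stages turned. At 3 days it ranked number 5 among all genes of its library and held 1.30% of the summed RPKM. In bulk fruit tissue, fewer cells that express a gene and less of its RNA per cell cannot be told apart.

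**Figure D1:**
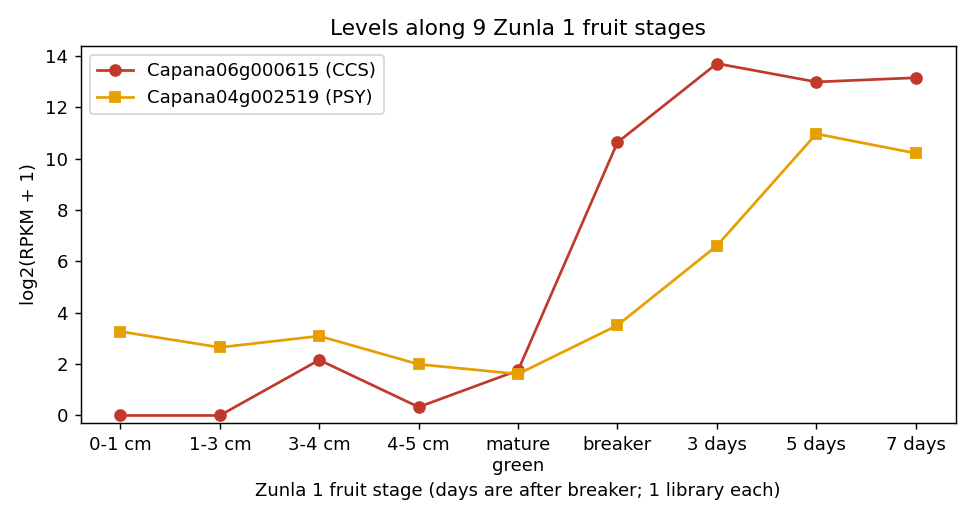
Levels of CCS and PSY, as log2(RPKM + 1), in 9 Zunla 1 fruit stages with 1 library each. CCS climbs from 2.37 RPKM at mature green to 1583 RPKM at breaker, whereas PSY is at 10.4 RPKM there and reaches its highest Zunla 1 level, 1992 RPKM, 5 days after breaker.

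Stages 3, 5 and 7 days past breaker were set against the 5 stages that came before it, which asks which genes change as the fruit ripens. PSY was at 1090 ± 951 RPKM (SD, n = 3) after breaker and 5.29 ± 2.82 RPKM (SD, n = 5) before it, and CCS at 10140 ± 2766 RPKM (SD, n = 3) and 1.22 ± 1.61 RPKM (SD, n = 5). The groups did not overlap for either gene. Here and below, the share of all tested genes whose groups do not overlap was not counted. PSY rose by 6.73 on the log2(RPKM + 1) scale (limma, SE 0.897, adjusted p = 0.00302), number 46 among the 19771 genes tested, and CCS had the highest change of them all, 12.43 (limma, SE 0.549, adjusted p = 8.28e-05). In this comparison 21.7% of all tested genes were called, 6.15% higher and 15.6% lower, and the median gene changed by -0.31, so PSY lay 7.04 and CCS 12.73 above the median gene. The p-values treat stages as replicates. With median-of-ratios scaling the calls were 1998 higher and 2792 lower, against 1215 and 3077 as deposited.

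The stage of the highest level differed between the genes. As percent of its highest Zunla 1 level after breaker, CCS stood at 11.9% at breaker and 68.1% at 7 days, and PSY at 0.521% at breaker, 4.84% at 3 days and 59.3% at 7 days. Of the 1070 genes that were called higher by at least 2-fold in the same comparison, a list that holds both genes, 312 were highest at 3 days, as CCS was, 368 at 5 days, as PSY was, and 390 at 7 days. After median-of-ratios scaling these numbers were 315, 475 and 280, so the commonest stage moved from 7 to 5 days. As deposited, the median of the 1070 genes stood at 24.8% at breaker, with 841 of them above CCS and 1048 above PSY. CCS was thus early beside PSY but not beside most of these genes. This is a description of 1 library per stage, with no test.

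The ratio of the levels of both genes moved with the stages. CCS was 1.15 times PSY at mature green, 153 times at breaker and 138 times at 3 days after breaker. At 5 and 7 days it was 4.06 and 7.67 times PSY. In fruit of 3 to 4 and 4 to 5 cm PSY was the higher of the 2, by 2.16 and 11.6 times.

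Across C. annuum lines the same question was asked with mature green fruit of 9 lines and fruit 5 days after breaker of 3 lines. Zunla 1 libraries of these stages enter both this and the previous comparison. In mature green fruit PSY was lowest in 11c255 (0.992 RPKM), had a median of 2.06 RPKM and was highest in ZJ49 (22.6 RPKM). At 5 days after breaker PSY was at 1992 RPKM in Zunla 1, 1659 RPKM in ZJ49 and 506 RPKM in ZJ7, so that the lowest ripe line lay far above the highest green one. CCS was lowest in mature green 11c255 (0.214 RPKM, 10 reads), had a median of 1.32 RPKM and was highest in ZJ49 (1300 RPKM). The next highest line, ZJ32, was at 4.45 RPKM. At 5 days after breaker CCS was at 8086 RPKM in Zunla 1, 7820 RPKM in ZJ49 and 5000 RPKM in ZJ7, and again the groups did not overlap.

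PSY averaged 1386 ± 779 RPKM (SD, n = 3) after breaker and 5.86 ± 7.48 RPKM (SD, n = 9), a log2 change of 8.06 (limma, SE 0.770, adjusted p = 0.000148). CCS averaged 6969 ± 1710 RPKM (SD, n = 3) after breaker and 146 ± 433 RPKM (SD, n = 9), or 1.66 ± 1.54 RPKM (SD, n = 8) at mature green without ZJ49, and its log2 change was 10.51 (limma, SE 1.66, adjusted p = 0.00163). The changes ranked number 14 and number 2 among 20719 genes. Of these genes 21.6% were called, 7.32% higher and 14.3% lower, the median gene changed by -0.24, and scaling gave 2200 higher and 2612 lower calls against 1516 and 2959. For each gene alone, an exact two-sided permutation test over the 12 libraries gave p = 0.00455, the smallest its 220 splits allow. Zunla 1 and ZJ49 have a library in both groups, so the 12 libraries come from 10 lines, and neither this test nor the fit takes that pairing into account.

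The ripe libraries all belonged to the shallower depth set, but the mature green ones did not. PSY was at 2.06 to 22.6 RPKM in the 4 shallower and at 0.992 to 2.30 RPKM in the 5 deeper mature green libraries. CCS was at 2.37 to 1300 RPKM and at 0.214 to 1.32 RPKM. Both genes were thus lower in the deeper libraries, with an overlap of ranges for PSY only, and line and depth set cannot be told apart there. Within the shallower set PSY kept its call at a log2 change of 6.93 (limma, adjusted p = 0.0219), and CCS lost it at 8.58 (limma, adjusted p = 0.0695). Only 190 genes were called within that set, against 4475 with both sets, so a lost call was not particular to CCS.

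**Figure D2:**
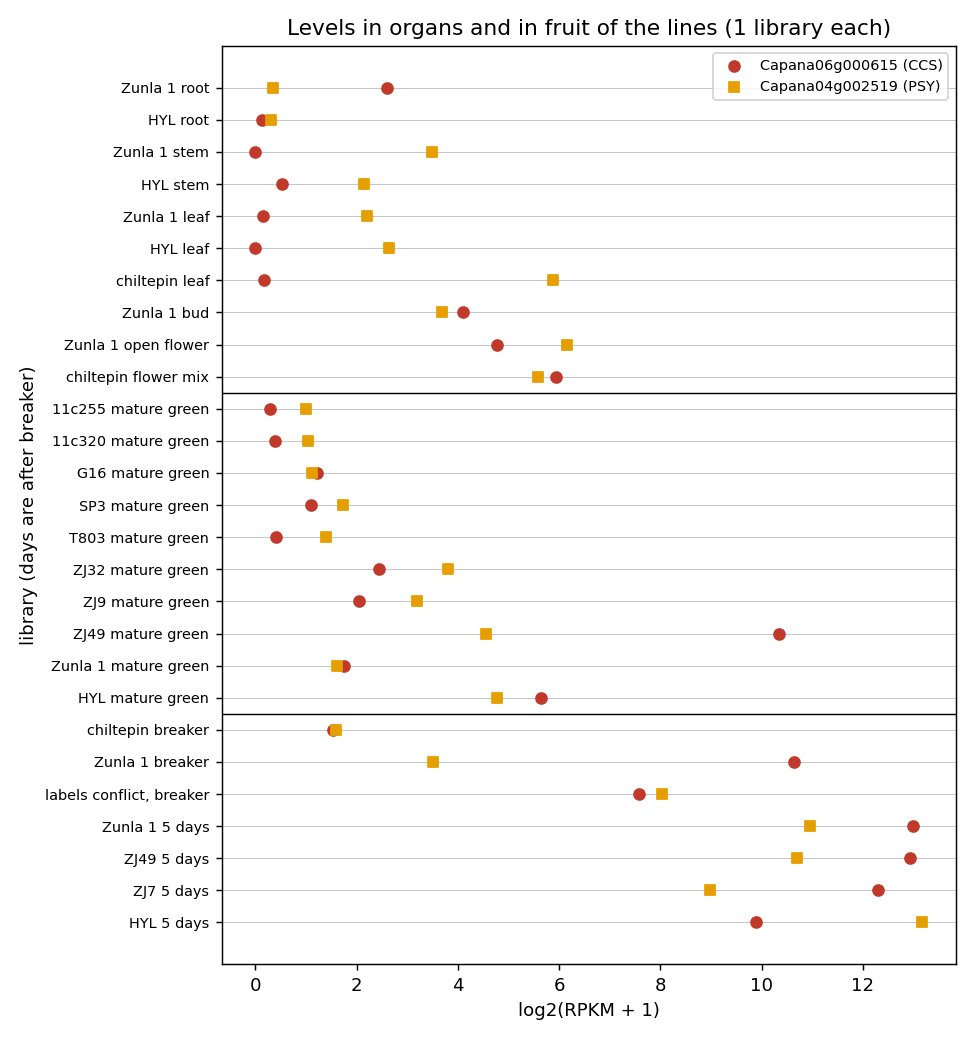
Levels of CCS and PSY, as log2(RPKM + 1), in 27 libraries: organs (top), mature green fruit by line (middle) and fruit at breaker and 5 days after it (bottom), with 1 library per row. CCS is above PSY by a wide margin in mature green ZJ49 (1300 against 22.6 RPKM), and HYL 5 days after breaker shows the opposite order (951 against 9211 RPKM).

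In the 3 lines that had both stages the folds between mature green and ripe fruit differed. PSY went from 2.06 to 1992 RPKM in Zunla 1 (967-fold), from 22.6 to 1659 RPKM in ZJ49 (73.6-fold) and from 26.4 to 9211 RPKM in HYL (349-fold, or 669-fold after scaling). CCS went from 2.37 to 8086 RPKM in Zunla 1 (3410-fold), from 1300 to 7820 RPKM in ZJ49 (6.02-fold) and from 48.8 to 951 RPKM in HYL (19.5-fold, or 37.4-fold after scaling). Both genes were higher after breaker in 3 of 3 lines, and the share of all genes that were so was not counted. As deposited the stages overlapped for CCS, since ripe HYL (951 RPKM) was below mature green ZJ49 (1300 RPKM), and did not overlap for PSY. After median-of-ratios scaling that order turned, with CCS at 1634 in ripe HYL and 1120 in mature green ZJ49, and the stages of CCS no longer overlapped.

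With the line as a block, PSY rose by 7.96 on the log2 scale (limma, SE 0.621, adjusted p = 0.00371). The log2 change of CCS was 6.02 (limma, SE 1.50, adjusted p = 0.0565), short of the threshold. Here 8.61% of 17681 genes were called, 2.62% higher and 5.98% lower, the median gene changed by -0.28, and scaling gave 830 higher and 957 lower calls against 464 and 1058. Leaving out 1 library removes its line from the contrast and leaves 1 residual degree of freedom, so these p-values rest on the spread shared by all genes. Without either HYL library PSY lost its call (7.74, limma adjusted p = 0.0623 and 0.0699). Without mature green HYL 0 of 18358 genes were called, and without ripe HYL 1 of 18809. CCS passed without either Zunla 1 library (3.42) or either ZJ49 library (7.74). The fits without a Zunla 1 library called 2918 and 2866 genes, and those without a ZJ49 library 1848 and 1800, against 1522 in the full fit. The calls of both genes thus moved with the number of all genes called.

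HYL was set beside Zunla 1 in 5 organs and stages. In mature green fruit both genes were higher in HYL, with PSY at 26.4 against 2.06 RPKM and CCS at 48.8 against 2.37 RPKM. At 5 days after breaker PSY was 4.62-fold higher in HYL (9211 against 1992 RPKM), and CCS was 8.50-fold lower (951 against 8086 RPKM). These HYL levels lay outside the C. annuum levels of that stage, above 506 to 1992 RPKM for PSY and below 5000 to 8086 RPKM for CCS. PSY was number 10 among all genes in ripe HYL fruit and held 0.957% of the summed RPKM. The ratio of CCS to PSY was 0.103 in ripe HYL and 4.06, 4.71 and 9.87 in ripe Zunla 1, ZJ49 and ZJ7. With 1 HYL library at the stage, these differences have no replicate check. HYL was counted on the same gene IDs as Zunla 1, and whether its reads match them as well was not tested. HYL 5 days after breaker was the library that median-of-ratios scaling raised most, by 1.72 times, and scaling left the ratio as it was.

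In the vegetative organs PSY was at 5.19 RPKM in HYL and 3.63 RPKM in Zunla 1 leaf, 3.45 and 10.2 RPKM in stem, and 0.236 and 0.279 RPKM (4 and 5 reads) in root. CCS had no read in HYL leaf and Zunla 1 stem, 2 reads in HYL root and Zunla 1 leaf and 9 reads in HYL stem, while Zunla 1 root was at 5.08 RPKM (108 reads). Over the 5 pairs, with organ and stage as a block, PSY differed by 0.88 (limma, SE 0.608, adjusted p = 0.459) and CCS by -0.26 (limma, SE 0.901, adjusted p = 0.907). Neither passed the threshold, while 6.59% of 18857 genes were called, 2.75% higher and 3.84% lower in HYL. The sign of CCS turned without the root pair (0.30) or the ripe fruit pair (0.45), and that of PSY turned with root, stem and leaf only (-0.32). The HYL vegetative organs were from seedlings, which those of Zunla 1 were not.

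Breaker fruit of chiltepin did not carry the high CCS level of Zunla 1 breaker fruit. CCS was at 1.91 RPKM (84 reads) in chiltepin and 1583 RPKM in Zunla 1, a ratio of 829.9, and PSY was at 2.02 against 10.4 RPKM. These chiltepin levels lay within the range of the mature green C. annuum lines other than ZJ49. In leaf the order was the other way for PSY, with 57.8 RPKM in chiltepin, 15.9-fold the 3.63 RPKM of Zunla 1 (26.9-fold after scaling). CCS was near the floor in both leaves (0.124 and 0.105 RPKM). In flowers PSY was at 46.9 RPKM in the chiltepin mix, between Zunla 1 bud (11.8 RPKM) and open flower (70.4 RPKM), and CCS was at 60.4 RPKM, above both (16.2 and 26.4 RPKM).

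With organ as a block, chiltepin (3 libraries) differed from Zunla 1 (4 libraries) by 0.79 for PSY (limma, SE 0.973, adjusted p = 0.692) and by -2.12 for CCS (limma, SE 1.66, adjusted p = 0.515). Of 20115 genes, 3.59% were called, 2.78% higher and 0.810% lower in chiltepin, and scaling gave 323 higher and 126 lower calls against 560 and 163. The sign of CCS turned without either breaker library (0.87) and that of PSY without either leaf library (-0.44). All chiltepin libraries were in the deeper set and all Zunla 1 libraries in the shallower one, so the wild form and the depth set cannot be told apart. The leaves also differed in their plant age, mixed over growth phases in chiltepin and mature in Zunla 1.

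Outside the fruit both genes were highest in flowers or, for PSY, also in chiltepin leaf. CCS was at 16.2, 26.4 and 60.4 RPKM in Zunla 1 bud, Zunla 1 open flower and the chiltepin flower mix, and at 0 to 5.08 RPKM in the 7 root, stem and leaf libraries, without overlap. PSY gained 5.98-fold from bud to open flower in Zunla 1. Its flower levels of 11.8 to 70.4 RPKM overlapped the vegetative levels of 0.236 to 57.8 RPKM, where chiltepin leaf was highest and the roots were lowest. With line as a covariate CCS was higher in flowers by 4.18 (limma, SE 0.697, adjusted p = 0.00369), and PSY differed by 1.96 (limma, SE 0.999, adjusted p = 0.228), short of the threshold. In this comparison 9.58% of 21790 genes were called, 6.98% higher and 2.61% lower in flowers, the median gene changed by -0.42, and scaling gave 2053 higher and 276 lower calls against 1520 and 568. Zunla 1 libraries alone gave 3.52 for CCS (limma, adjusted p = 0.0653). HYL gave no flower library, so with line as a covariate its root, stem and leaf do not move the estimates of 4.18 and 1.96.

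**Figure D3:**
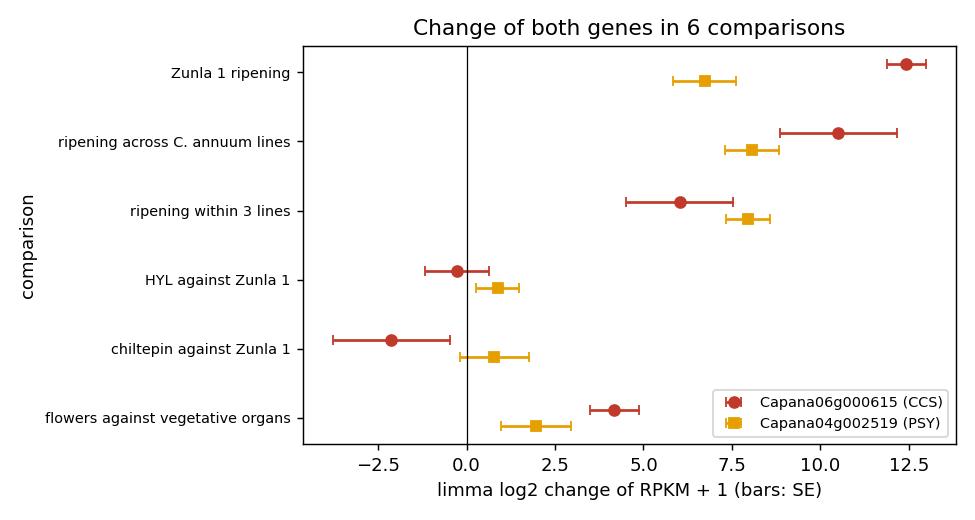
Change of CCS and PSY in 6 comparisons, as limma log2 change of RPKM + 1 with its standard error. In Zunla 1 ripening and across C. annuum lines both genes lie above 6, and in the comparisons of HYL and chiltepin with Zunla 1 they lie between -2.12 and 0.88.

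Over all 33 libraries the 6 highest CCS levels were those of Zunla 1 fruit from breaker on, ripe ZJ49 and ripe ZJ7, followed by mature green ZJ49 and ripe HYL, which change places after scaling. The order for PSY began with ripe HYL, followed by Zunla 1 at 5 days, ripe ZJ49, Zunla 1 at 7 days and ripe ZJ7. Among neighbours in these orders, the counting intervals of 19 of 32 pairs overlapped for CCS and those of 20 of 32 pairs for PSY. For CCS all of the overlaps were at 5.08 RPKM or less, so the order among low libraries is not resolved. CCS was the higher gene in 13 libraries and PSY in 20. The levels of both genes correlated at a Pearson's r of 0.81 and a Spearman's rho of 0.68 over the 33 libraries, which share lines and stages. Within the 23 fruit libraries r was 0.84, and within the 10 others it was 0.48.

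**Figure D4:**
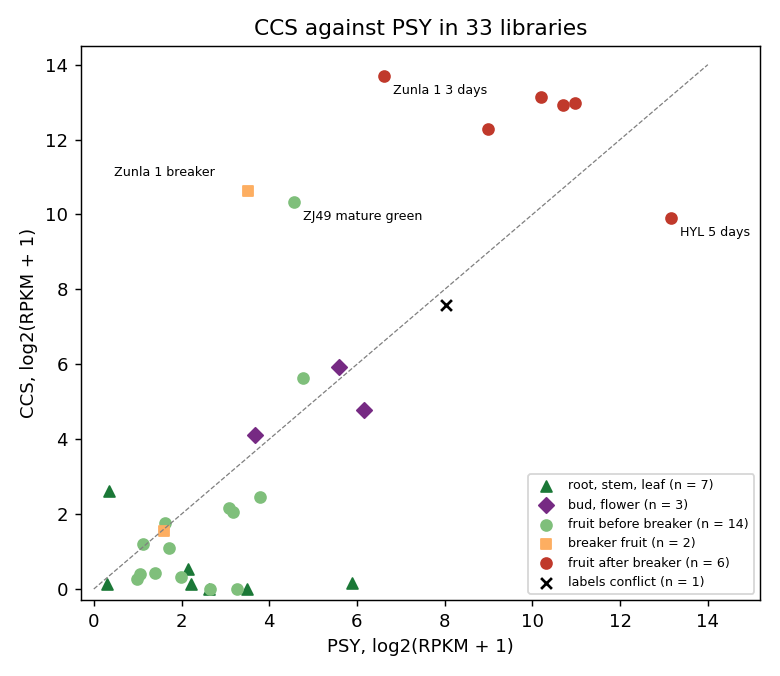
Level of CCS against level of PSY, both as log2(RPKM + 1), in 33 libraries, with equal levels on the dashed line. Zunla 1 at breaker and 3 days after it and mature green ZJ49 lie far above the line, and ripe HYL lies below it.

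The genes whose pattern was most like each of the 2 were sought by Pearson's r of log2(RPKM + 1) over the 33 libraries, among 19221 other genes that reached 10 RPKM. None of these IDs is paired with a name in the table or in RefSeq. They were picked for likeness over these same libraries, so traits shared with CCS or PSY follow in part from that choice. Most like CCS was Capana09g000065 (r = 0.97), with 17.1 RPKM at mature green, 669 RPKM at breaker and 3233 RPKM at 3 days in Zunla 1, 1212 RPKM in mature green ZJ49 and 536 RPKM in ripe HYL. It thus shared with CCS a steep climb from mature green to breaker and the high level in mature green ZJ49. Its level in ripe HYL was also below that in ripe Zunla 1 (3165 RPKM at 5 days). Capana05g002386 (r = 0.94), Capana02g003347 (r = 0.93), Capana07g002208 (r = 0.92) and Capana11g000143 (r = 0.92) followed. Of these, Capana02g003347 (7088 RPKM) and Capana11g000143 (16442 RPKM) were highest in ripe HYL, unlike CCS. Capana05g002386 (369 RPKM) and Capana07g002208 (552 RPKM) were highest in Zunla 1 at 5 days.

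Most like PSY was Capana10g002229 (r = 0.93), with 0.0707 RPKM at mature green, 0.333 RPKM at breaker, 74.5 RPKM at 3 days and 5787 RPKM at 5 days in Zunla 1, and 18545 RPKM in ripe HYL. Like PSY it climbed late and was highest in ripe HYL. Capana09g002439 (r = 0.91), Capana02g003347 (r = 0.90), Capana01g002797 (r = 0.90) and Capana08g001726 (r = 0.89) followed, and each of these was also highest in ripe HYL. The choice by r favours such genes, because ripe HYL is also where PSY is highest. Capana02g003347 was in both lists of 5, with 1254 RPKM at 3 days and 3759 RPKM at 5 days in Zunla 1 and 7088 RPKM in ripe HYL. PSY itself was number 120 of 19221 in likeness to CCS, and CCS number 55 in likeness to PSY. Each thus stood near the top of the other's order, but many genes were closer. By Spearman's rho these places were 267 and 106, and 1 of the 5 genes stayed in either list. With fruit libraries only they were 214 and 282 of 19171, and 2 genes stayed in the list of CCS and 1 in that of PSY.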

How the data were processed

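RPKM values of 31426 genes in 33 libraries were taken as deposited by the authors, who per the labels' protocols sequenced poly(A) libraries; the protocol names no strand marking, so antisense reads cannot be told apart. The sources used here name no aligner, counter, build or annotation. 0 further columns were left unused. Both genes were named as chosen for this work: 0 IDs matched the RefSeq table of UCD10Xv1.1, so the list of other carotenoid genes fixed by name was void, and organs could not be checked against markers.

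Genes and lists were chosen with earlier results of these data known. Read totals were searched for in the steps of the lowest values per library and refined on those of the 100 lowest that lay near a whole step. The method was tested on simulated counts. Single-library intervals are exact Poisson intervals at 95%, and mates of a pair may count as separate reads. Comparisons were fitted in R 4.3.3 with limma 3.58.1 (lmFit, eBayes with trend) on log2(RPKM + 1), with two-sided tests. Tested genes reached 1 RPKM in a number of libraries no lower than the size of the smaller arm. Benjamini-Hochberg adjusted p under 0.05 over all tested genes was called. Fold changes on this scale understate changes of low genes. Lines were paired by their names in the labels. The named genes were both members, the 5 genes most like each and, among the 5 IDs on either side, those at 100 RPKM or more after breaker. Alternative settings used a pseudocount of 0.1, no filter, scaling, other blocks and libraries left out. For Zunla 1 stages and across C. annuum lines, the exact permutation test of each gene alone was counted with them. Python 3.11.15, pandas 2.3.3 and SciPy 1.17.1 were used.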

Additional observations from a re-analysis of the deposited data

Results flagged for a closer look

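CCS in mature green fruit of ZJ49, at 1300 RPKM, stood apart from the other 8 C. annuum lines. Its gap to the next line was 0.997 of the group's range, above Dixon's 95% limit for 9 samples. Chance passes that limit in about 1 of 20 groups if values are normally distributed, which was not tested for these RPKM. The highest and the lowest line were both checked, for either gene. PSY was also highest in that library, at 22.6 RPKM, with a gap of 0.448 of the range, under the limit.

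In the breaker library titled as HYL but described as Zunla 1, CCS was at 189 RPKM and PSY at 261 RPKM, both far above the floor. The library entered no comparison. CCS was 0.725 times PSY there, against 153 times in Zunla 1 breaker fruit 0.943 times in chiltepin breaker fruit, and 1.85 and 0.103 times in mature green and ripe HYL fruit.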

How the results depend on the processing

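In the comparison of Zunla 1 stages and in that across C. annuum lines, PSY was called under 14 of 14 and 20 of 20 alternatives, with log2 changes of 5.30 to 8.06 and 6.93 to 8.67. CCS was called under 14 of 14 (11.76 to 14.27) and under 19 of 20 (8.58 to 11.53), the exception being the shallower depth set (8.58). Each of these counts includes the exact permutation test of the gene alone, whose p was not adjusted. Across lines the fit without SP3 enters the count both as a setting and as a library left out. In flowers CCS was called under 14 of 15, the exception being Zunla 1 alone (3.52). HYL has no flower library, so leaving out any HYL library kept the estimate at 4.18 by design. Leaving out either chiltepin library gave the Zunla 1 estimate of 3.52. Leaving out 1 library gave 3.42 to 7.74 for CCS and 7.27 to 8.87 for PSY in the paired fit of 3 lines, -1.29 to 0.45 for CCS in HYL against Zunla 1, and -4.53 to 0.87 for CCS and -0.44 to 1.95 for PSY in chiltepin against Zunla 1. PSY in HYL against Zunla 1 was -0.32 in root, stem and leaf. The causes were not tested. Without the line block, the adjusted p (limma) was 0.0110 for PSY and 0.150 for CCS within 3 lines.

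Numbers of called genes depended more on the libraries. They ran from 1288 (without 7 days after breaker) to 6958 (without mature green) around 4292 in Zunla 1, from 190 (shallower set) to 5855 around 4475 across lines, from 0 (limma, without mature green HYL, with 3865 genes at an unadjusted p under 0.05) to 2918 around 1522 within lines (130 with no filter), from 650 (no block) to 1402 around 1243 for HYL, from 0 (limma, without either leaf, with 3302 and 3394 genes at an unadjusted p under 0.05) to 1131 around 723 for chiltepin (35 with no filter) and from 1332 (without bud) to 3174 (without the chiltepin flower mix) around 2088 for flowers. Scaling multiplied libraries by 0.807 to 1.72 and shifted the change of the median gene from -0.31 to -0.08 in Zunla 1, -0.24 to -0.09 across lines, -0.28 to 0.03 within lines and -0.42 to -0.03 in flowers. It moved the highest level of CCS from 13285 to 13716 RPKM and that of PSY from 9211 to 15818 RPKM. Depth limits CCS in 4 libraries with 0 reads.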

Other observations

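The IDs next in number did not reach the highest levels of CCS and PSY after breaker, with at most 709 RPKM beside CCS and 332 RPKM beside PSY. Some shared part of the pattern. Of the 10 nearest IDs on either side of CCS, 3 reached 100 RPKM in any of the 6 libraries after breaker: Capana06g000612 (496 RPKM), Capana06g000614 (181 RPKM) and Capana06g000621 (709 RPKM). Capana06g000612 was highest in mature green ZJ9 (13893 RPKM) and at 9.99 RPKM in Zunla 1 fruit 5 days after breaker. Capana06g000621 was highest in chiltepin leaf (1833 RPKM) and at 5.31 RPKM in that Zunla 1 stage. Capana06g000614, the ID just before CCS, was at 4.20 RPKM at mature green, 102 RPKM at 3 days and 71.3 RPKM at 5 days after breaker in Zunla 1. Of the 10 nearest to PSY, 2 reached 100 RPKM after breaker: Capana04g002517 (186 RPKM) and Capana04g002518 (332 RPKM). Capana04g002518, the ID just before PSY, was at 332 RPKM in ripe HYL, 142 RPKM in the breaker library with conflicting labels, 55.0 RPKM in open flowers of Zunla 1 and 23.6 RPKM in the chiltepin flower mix, while it was at 0.153 RPKM in Zunla 1 fruit 5 days after breaker. Other IDs near PSY were highest in ripe HYL as well, as PSY and Capana04g002518 were, at no more than 78.1 RPKM. Whether the models overlap was not tested.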
